A study of Mus musculus with 11 samples.

Results

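The genes described are 10 immediate early genes: the AP-1 subunits Fos, Fosb, Fosl2, Jun, Junb and Jund, the synaptic protein gene Arc, the transcription factor gene Npas4, and the short-lived response genes Ier2 and Dusp1. They were taken by symbol from a count table of 17118 genes. All 10 were found and all 10 were among the 15353 genes that passed a filter on low counts. The question addressed was whether their mRNA in the hippocampus differed between mice treated with a breast cancer chemotherapy and mice given saline, and whether they moved together from mouse to mouse.

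Female C57/BL6 mice, 12 weeks old at the start, were injected intraperitoneally once a week, 8 times in all. In the AC-T group (5 libraries, mice 501, 502, 503, 600 and 602) the opening 4 injections held both doxorubicin at 2 mg/kg and cyclophosphamide at 50 mg/kg, and the closing 4 held paclitaxel at 5 mg/kg. The control group (6 libraries, mice 201, 202, 203, 300, 301 and 302) was given 0.9% saline. All samples carry a 1-month label. Doxorubicin is an anthracycline, cyclophosphamide an alkylating agent, and paclitaxel a drug that stabilises microtubules. Each library was made from polyadenylated RNA of a small hippocampal tissue punch, so fewer cells of a type and less RNA per cell cannot be told apart.

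Immediate early genes are switched on within minutes of a stimulus, without new protein synthesis, when calcium and MAP kinase signals activate factors such as CREB and SRF that already sit at their promoters. Fos proteins pair with Jun proteins to form AP-1, a dimer that binds DNA and switches on a later set of genes, while Arc acts at the synapse itself. In the hippocampus Fos, Arc and Npas4 are widely used as marks of recently active neurons, and their mRNAs are short-lived.

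The promoters of Fos, Dusp1, Npas4 and Junb are shown as examples. Fos with Dusp1 was the closest pair across mice once the group means were subtracted, though another pair was closer under other centring. These 4 promoters hold the full cyclic AMP response element (CRE), the DNA element bound by CREB, in Dusp1, or its 5-base core alone, in the other 3. Whether promoter elements bear on the variation across mice was not tested. Sequences are from RefSeq (build GRCm38.p6) and 8 of the 10 members matched; Arc and Ier2 were not among them. Each line gives the 250 bases before the annotated start, 5′ to 3′ on the gene's own strand. Capitals mark the CRE core TGACG or its reverse complement CGTCA, the full CRE TGACGTCA, which contains overlapping cores, and the TATA box TATAAA. The windows are chr12:85473640-85473889 (plus strand) for Fos, chr17:26508473-26508722 (minus strand) for Dusp1, chr19:4989972-4990221 (minus strand) for Npas4 and chr8:84978749-84978998 (minus strand) for Junb.
Fos: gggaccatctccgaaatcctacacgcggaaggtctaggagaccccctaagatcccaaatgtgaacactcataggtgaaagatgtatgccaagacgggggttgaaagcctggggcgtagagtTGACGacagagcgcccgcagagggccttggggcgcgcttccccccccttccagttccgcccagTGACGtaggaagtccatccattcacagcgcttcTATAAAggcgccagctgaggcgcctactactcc
Dusp1: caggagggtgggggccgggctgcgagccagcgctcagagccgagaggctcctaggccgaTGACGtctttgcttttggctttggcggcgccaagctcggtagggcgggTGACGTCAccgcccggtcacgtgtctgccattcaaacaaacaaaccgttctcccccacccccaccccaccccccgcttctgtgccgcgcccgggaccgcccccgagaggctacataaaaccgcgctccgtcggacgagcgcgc
Npas4: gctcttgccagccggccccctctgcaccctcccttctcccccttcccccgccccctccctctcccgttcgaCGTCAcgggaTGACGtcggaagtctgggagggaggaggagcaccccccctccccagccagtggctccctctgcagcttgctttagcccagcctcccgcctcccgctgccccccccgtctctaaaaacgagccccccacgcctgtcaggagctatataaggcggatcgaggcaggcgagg
Junb: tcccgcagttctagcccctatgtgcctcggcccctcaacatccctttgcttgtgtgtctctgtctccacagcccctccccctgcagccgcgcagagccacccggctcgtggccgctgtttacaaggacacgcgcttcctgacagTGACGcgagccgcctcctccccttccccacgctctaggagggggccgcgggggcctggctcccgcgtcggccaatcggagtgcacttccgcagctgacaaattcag

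The CRE core was found, on either strand, in 5 of the 8 promoters (Fos, Fosb, Junb, Npas4 and Dusp1) and in 17.8% of all 32851 RefSeq promoters of the same length. These 5 promoters held 58.4% to 68.8% G and C, against a mean of 53.2% over all promoters. The shares were not matched for base composition. In Fos the cores began 129 and 66 bases before the start, in Npas4 179 and 169 bases before it, and in Junb 106 bases before it. The full CRE was present in 1 of the 8, Dusp1, and in 1.55% of all promoters. Within the 250 bases the AP-1 site (TGACTCA or TGAGTCA) was found in 0 of 8 and in 4.46% of all promoters, and the CArG box bound by SRF in 0 of 8 and 1.47%. The TATA box was found in Fos, 33 bases before the start, and in 12.4% of all promoters. These are matches of letters in a short window and say nothing of binding.

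The depth was between 23.4 and 32.1 M counts per library (M, mega), and the members' counts in single libraries from 78 to 3901. Marker genes of neighbouring tissue differed between the groups. The marker lists were chosen with earlier results of these data known, so the counts and ranges that follow are descriptions and no independent test. Of 13 thalamic markers tested, 12 were lower after AC-T and 0 higher, and their summed level was 725 to 1033 CPM (normalised read counts, scaled to a common library size) after AC-T against 1353 to 2022 CPM after saline. The CA1 pyramidal neuron markers summed to 510 to 665 CPM against 134 to 420 CPM, with 1 of 8 called higher. The neocortical markers summed to 285 to 326 CPM against 216 to 286 CPM, with 5 of 11 called higher and 1 lower. The CA2 and CA3 markers summed to 456 to 558 CPM against 564 to 877 CPM, with 2 of 9 called lower, and 2 of 8 astrocyte markers were called lower. The dentate granule neuron markers, with 0 of 9 called, summed to 244 to 429 CPM against 287 to 443 CPM. The defining thalamic marker Gbx2 was at 0 in 1 AC-T library, and Pou4f1 was at 0 in 5 AC-T and 5 saline libraries. Mouse numbers fall into series by their leading digit, with saline mice in series 2 and 3 and AC-T mice in series 5 and 6. What a series is was not stated, and each holds a single treatment, so series and treatment cannot be told apart. The X-linked transcript Xist was listed at 0 in saline mouse 300, labelled female like all the others, and at 13057 to 22963 counts in the remaining 10 libraries; without mouse 300, 832 genes of the whole table were called in place of 1301 (426 higher in place of 751), and members whose call changed are given with and without it.

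Among the 10 members, 1 (Ier2) was called lower after AC-T and none higher, where 8.47% of all genes were called in either direction. The Ier2 call was lost on omission of any 1 of 9 of the 11 libraries. Ier2 was at 0.696 of its saline level. Dusp1 lay lower (0.653 of saline) and Fosb and Fosl2 higher (1.36-fold and 1.41-fold), but these differences did not pass the test. Fos, the Jun genes, Arc and Npas4 had fold changes between 0.731 and 1.16, within the spread between mice.

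The test was edgeR's quasi-likelihood F test over all 15353 genes, with a call at a Benjamini-Hochberg adjusted p under 0.05. By it 1 of the 10 members was called, where 8.47% of all genes tested were. It was called lower, as were 3.58% of all genes, and 0 members were called higher, as were 4.89%. Without adjustment, 4 of the members (2 higher, 2 lower) had p under 0.05, compared with 24.9% of all genes. The median log2 fold change (AC-T minus saline) of the members was −0.13, and that of all genes was −0.00. In 0 of the 10 members were the AC-T and saline ranges separate, against 7.52% of all genes. DESeq2, another count test, called 2 members lower (Ier2 and Dusp1) and 0 higher. It called more genes throughout the table: 2559 in all, 1183 lower and 1376 higher, where edgeR called 1301, 550 and 751.

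**Figure D1:**
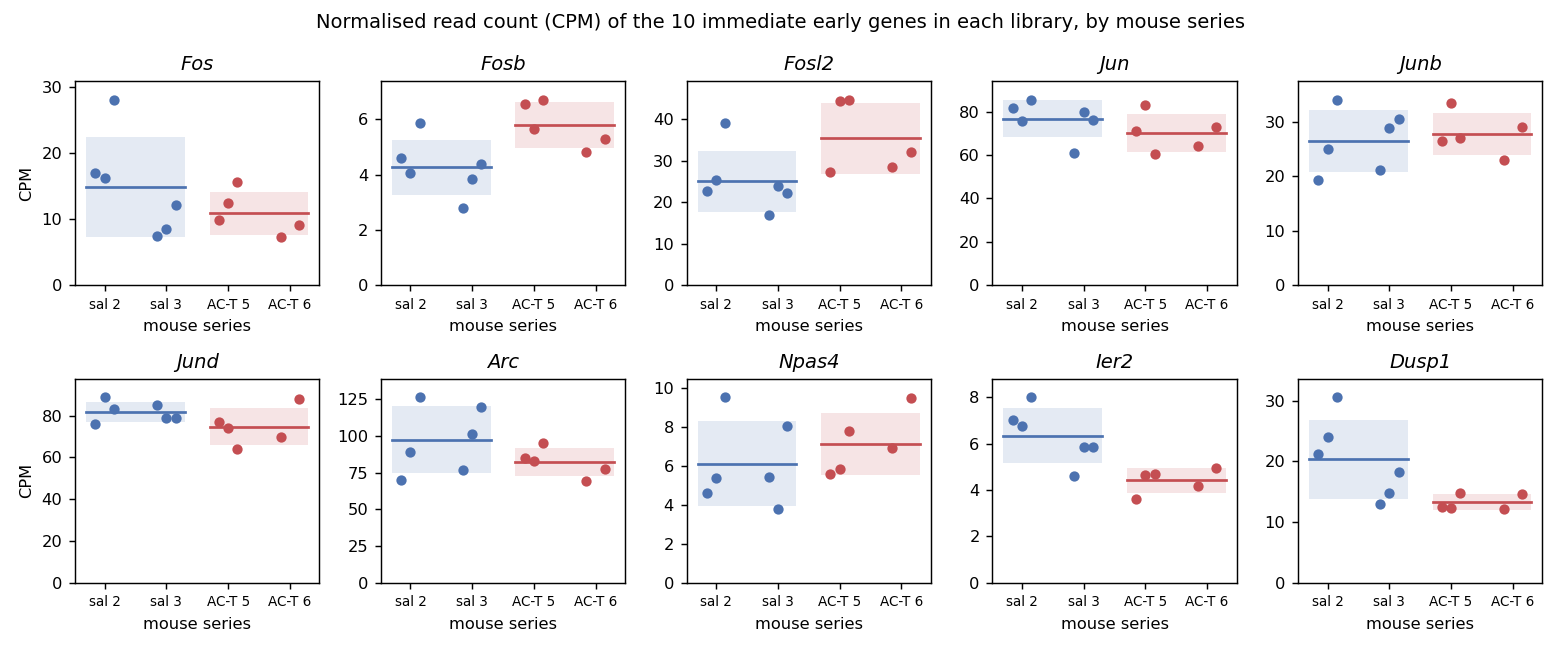
Level of each of the 10 genes in CPM (linear axes from 0), with each point 1 mouse, the mice placed by mouse series, a line at the mean of each group and shading over its SD (n = 5 AC-T, n = 6 saline). The saline points of Fos and Dusp1 spread over a wide range, highest in mouse 203, while the AC-T points of Dusp1 lie between 12.2 and 14.8 CPM.

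Ier2 encodes a small nuclear protein of the early growth response. It was at 3.62, 4.64, 4.69, 4.18 and 4.97 CPM in AC-T mice 501, 502, 503, 600 and 602, and in saline mice it ran from 4.61 to 8.01 CPM with a median of 6.31. Every AC-T library lay below all saline libraries but 300, the lowest of its group at 4.61 CPM, so the groups overlapped. The group means were 4.42 ± 0.531 CPM (SD, n = 5) after AC-T and 6.35 ± 1.17 CPM (SD, n = 6) after saline. The log2 fold change was −0.52 ± 0.14 (SE), with an edgeR adjusted p of 0.0389. The call was lost on omission of any 1 of 9 of the 11 libraries, with edgeR adjusted p between 0.0173 and 0.0814 over all 11 omissions; it held without saline mouse 300 (0.0173) and without saline mouse 302. It was also lost with series as a random effect (limma adjusted p = 0.133) and without saline series 2 (edgeR adjusted p = 0.235), AC-T series 5 (0.231) or AC-T series 6 (0.105).

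Dusp1 encodes a nuclear phosphatase that switches off MAP kinases and is itself induced by them. After AC-T it was at 12.5, 12.3, 14.8, 12.2 and 14.5 CPM, and after saline it ran from 13.0 to 30.5 CPM with a median of 19.7. The AC-T libraries were close together, with saline mouse 300 among them and saline mouse 301 just above. Means were 13.3 ± 1.28 and 20.3 ± 6.45 CPM, for a log2 fold change of −0.61 ± 0.19 (edgeR adjusted p = 0.0717). Without saline mouse 300 Dusp1 passed the test (log2 fold change −0.72, edgeR adjusted p = 0.0341).

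Fos, the founding member of its family and the partner that makes AP-1 inducible, was at 9.84, 12.5, 15.6, 7.25 and 9.10 CPM after AC-T. In saline mice 201, 202, 203, 300, 301 and 302 it was at 16.9, 16.2, 28.1, 7.41, 8.43 and 12.1 CPM. The saline range enclosed all AC-T libraries but 600, and saline mouse 203 was far the highest. Means were 10.9 ± 3.27 and 14.8 ± 7.55 CPM, with a log2 fold change of −0.45 ± 0.33 (edgeR adjusted p = 0.439). Without saline mouse 203 the log2 fold change was −0.16.

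Fosb, whose shortened splice form is the long-lived ΔFosB, was at 6.55, 5.64, 6.72, 4.81 and 5.29 CPM after AC-T and from 2.81 to 5.87 CPM after saline, with a saline median of 4.22. All AC-T libraries were above that median, and only saline mouse 203 reached into their range. The log2 fold change was 0.44 ± 0.17 (edgeR adjusted p = 0.118). The table gives 1 value per gene, so the splice forms were not separated.

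Fosl2 encodes Fra-2, a Fos family protein with a slower time course than Fos. It was at 27.4, 44.3, 44.7, 28.4 and 32.0 CPM after AC-T and from 16.8 to 39.0 CPM after saline, with a saline median of 23.4. Every AC-T library exceeded all saline libraries but mouse 203, at 39.0 CPM. The log2 fold change was 0.50 ± 0.20 (edgeR adjusted p = 0.150), and without saline mouse 203 it was 0.67 and passed the test (edgeR adjusted p = 0.0403).

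The Jun genes, which encode the partners of Fos proteins, differed little. Jun, the subunit phosphorylated by JNK kinases, was at 71.0, 83.1, 60.5, 64.3 and 73.0 CPM after AC-T and from 61.0 to 85.7 CPM (median 78.1) after saline, with a log2 fold change of −0.13 ± 0.10 (edgeR adjusted p = 0.462). Junb, an inducible subunit with weaker activity than Jun, was at 26.4, 33.5, 27.1, 23.0 and 29.2 CPM against 19.4 to 34.1 CPM (median 27.0), a log2 fold change of 0.07 ± 0.15 (edgeR adjusted p = 0.831). Jund, the subunit that most cells hold at a steady level, was at 76.8, 74.3, 64.1, 70.0 and 88.2 CPM against 76.0 to 88.8 CPM (median 81.1), a log2 fold change of −0.13 ± 0.07 (edgeR adjusted p = 0.300). The ranges of the groups overlapped for each of these genes.

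Arc, whose protein drives the removal of AMPA receptors from synapses, was at 85.4, 82.7, 95.3, 69.3 and 77.8 CPM after AC-T and from 70.3 to 126 CPM (median 95.3) after saline. The AC-T libraries lay at or below the saline median, and mouse 600 just below the saline range. Means were 82.1 ± 9.60 and 97.4 ± 22.8 CPM (log2 fold change −0.25 ± 0.15, edgeR adjusted p = 0.346). Npas4, a neuronal transcription factor induced by calcium entry, was at 5.61, 5.85, 7.82, 6.95 and 9.48 CPM after AC-T and from 3.76 to 9.53 CPM (median 5.40) after saline. Its AC-T values lay inside the saline range (log2 fold change 0.22 ± 0.23, edgeR adjusted p = 0.619).

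**Figure D2:**
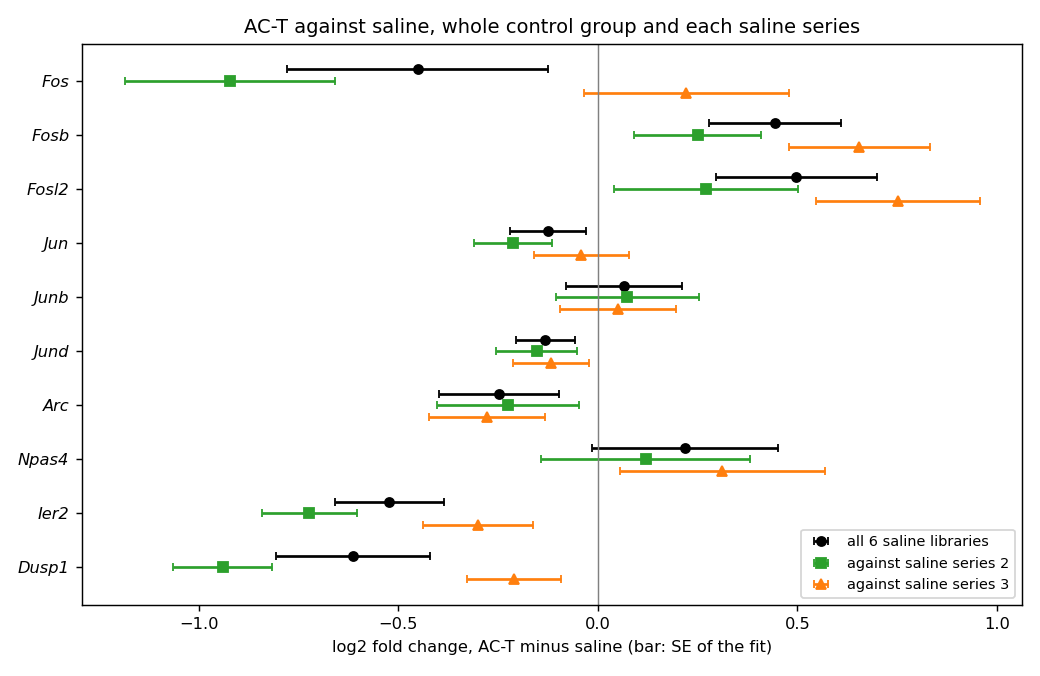
Log2 fold change, AC-T minus saline, of each of the 10 genes with its SE, from the edgeR fit to all 6 saline libraries (circles) and from fits against saline series 2 (squares) or series 3 (triangles) alone; the vertical line at 0 marks no difference. Fos moves from −0.92 against series 2 to 0.22 against series 3, while Ier2 lies below 0 and Fosb and Fosl2 above 0 in each fit.

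Levels of different genes were compared per length, dividing CPM by the length of the longest annotated transcript. Jund had the highest level of the 10 in saline mice, 49.1 ± 2.82 CPM per kb (SD, n = 6), followed by Arc at 31.9 ± 7.47, Jun at 24.1 ± 2.68 and Junb at 14.7 ± 3.15 CPM per kb. Dusp1 (8.78 ± 2.79 CPM per kb), Fos (7.04 ± 3.58), Ier2 (4.17 ± 0.770) and Fosl2 (3.83 ± 1.14) came next, and Npas4 (1.62 ± 0.581) and Fosb (1.13 ± 0.266) were lowest. Among neighbours in this order, the intervals of 1 SD were separate between Jund and Arc, between Jun and Junb, and between Fosl2 and Npas4, and they overlapped for the other 6 neighbouring pairs. After AC-T, Jund (44.8 ± 5.38 CPM per kb, SD, n = 5) and Arc (26.9 ± 3.14) were again highest, and Npas4 (1.88 ± 0.417) and Fosb (1.53 ± 0.216) lowest. Fosl2, at 5.41 ± 1.31 CPM per kb, was then level with Dusp1 at 5.74 ± 0.552 and Fos at 5.15 ± 1.55, and Ier2 stood at 2.90 ± 0.349.

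The ratio of Fosb or Fosl2 to Fos in the same library was examined after the values had been seen, and is given as a description with no test. The Fosb to Fos count ratio was 0.665, 0.452, 0.430, 0.664 and 0.581 in the AC-T libraries and from 0.209 to 0.455 in the saline libraries, 1.77-fold apart in geometric mean. AC-T mice 502 and 503 lay within the saline range, below saline mouse 301 at 0.455. The Fosl2 to Fos ratio was 2.78, 3.55, 2.86, 3.92 and 3.52 after AC-T and from 1.35 to 2.84 after saline, 1.82-fold apart, and AC-T mouse 501 overlapped with saline mouse 301. Without saline series 2 the differences were 1.38-fold and 1.44-fold, and without saline series 3 they were 2.26-fold and 2.30-fold. Between Fosl2 and Fosb the ratio differed 1.03-fold, and between Jund and Jun 0.992-fold. Counts are not corrected for length here, so a ratio compares libraries and not the levels of the genes.

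**Figure D3:**
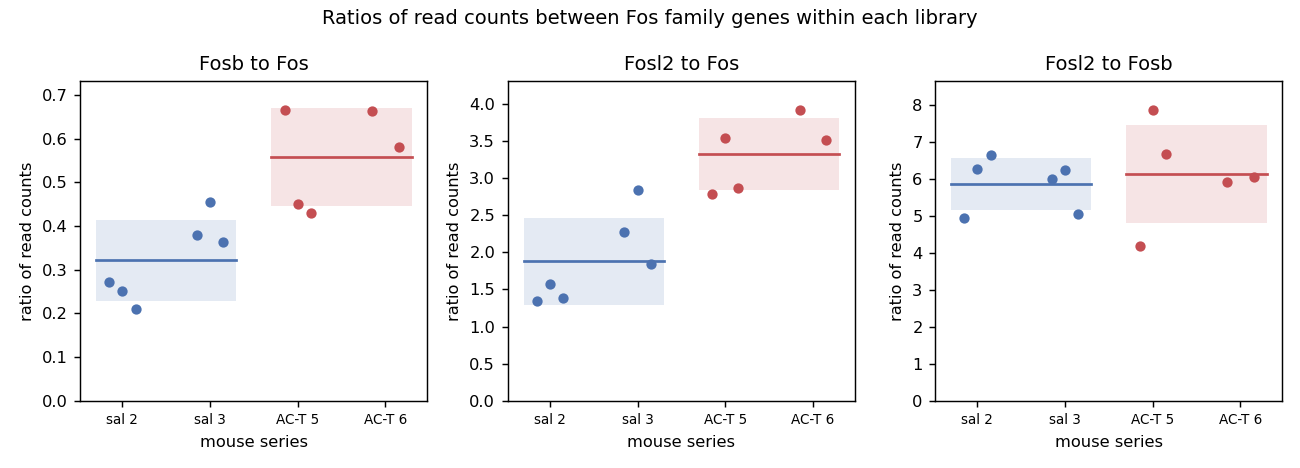
Ratio of counts of Fosb to Fos, Fosl2 to Fos and Fosl2 to Fosb in each library (points, 1 per mouse), by mouse series, with linear axes from 0, a line at each group's mean and shading over its SD. For the ratios to Fos the AC-T libraries reach 0.665 and 3.92 and the saline libraries 0.455 and 2.84, with the lower ratios in saline series 2.

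Among saline mice, 3 members had ranges that were separate between the series, though none of the 10 was called. Fos was at 16.2 to 28.1 CPM in the 3 mice of saline series 2 and at 7.41 to 12.1 CPM in the 3 mice of saline series 3, with means of 20.4 ± 6.67 and 9.30 ± 2.44 CPM (SD, n = 3 each). Dusp1 was at 21.3 to 30.5 CPM against 13.0 to 18.2 CPM, and Ier2 at 6.75 to 8.01 CPM against 4.61 to 5.87 CPM. For these 3 genes the saline series did not overlap. With 3 mice in each series, ranges separate easily, and the share of all genes that did so was not counted. In a model with 4 series means, the log2 difference (saline 3 minus saline 2) was −1.13 ± 0.26 for Fos (edgeR adjusted p = 0.0748), −0.72 ± 0.16 for Dusp1 (edgeR adjusted p = 0.0645) and −0.42 ± 0.15 for Ier2 (edgeR adjusted p = 0.161). By edgeR 0 of 10 members were called between the saline series, where 1.03% of all genes were, and 3 members had unadjusted p under 0.05. The share of all genes with unadjusted p under 0.05 was not counted for the series comparisons. Between AC-T series 6 and 5, 0 of 10 were called, where 0.117% of all genes were, and 0 had unadjusted p under 0.05 by edgeR; no other tool was run on the series.

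Which members were called differed with the saline series used as the reference. Against saline series 2, AC-T series 5 had Dusp1 (−0.94) and Ier2 (−0.75) called lower, 2 of 10 where 4.34% of all genes were called lower, and AC-T series 6 had Dusp1 (−0.92), Ier2 (−0.67) and Fos (−1.32) called lower, 3 of 10 where 3.45% were. These comparisons share their saline mice. Against saline series 3, 0 members were called for either AC-T series by edgeR, where 3.61% and 3.39% of all genes were called in either direction. For AC-T series 5, 3 members had unadjusted p under 0.05, and for series 6, 0 had. The share of all genes with such p was not counted. When all AC-T mice were set against saline series 3 alone, Fos was 0.22 ± 0.26 (edgeR adjusted p = 0.662), Fosb 0.66 ± 0.18 (0.0754), Fosl2 0.75 ± 0.21 (0.0787), Ier2 −0.30 ± 0.14 (0.235) and Dusp1 −0.21 ± 0.12 (0.328) on the log2 scale. Against saline series 2 alone, Fos was −0.92 ± 0.26 (0.0720), Fosb 0.25 (0.407) and Fosl2 0.27 (0.551), with Ier2 (−0.72 ± 0.12, 0.0103) and Dusp1 (−0.94 ± 0.12, 0.00391) called lower. In that fit 1206 genes of the whole table were called, 597 of them lower. The tissue markers moved with the series too: summed thalamic markers were 1793 to 2022 CPM in saline series 2 and 1353 to 1481 CPM in series 3, and summed CA1 markers 134 to 304 CPM and 368 to 420 CPM. Their part in the series difference was not tested.

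Most pairs of members varied in the same direction from mouse to mouse. To remove the treatment difference, the group mean of log2 CPM was subtracted for each gene, and members were then correlated over the 11 libraries; p-values are from permutation within treatment, 2-sided, adjusted over the 45 pairs. Of the pairs 41 had a positive Pearson r, and the median r was 0.45. The share of positive r and the median r over pairs of other genes were not counted. Whether these values are particular to the members was thus not tested. Fos with Dusp1 had the highest r of the 45 pairs (r = 0.90, Spearman rho = 0.85, permutation p = 0.00128, adjusted 0.0271). Fos with Fosb (r = 0.87, rho = 0.86, permutation p = 0.00222), Ier2 with Dusp1 (r = 0.87, rho = 0.78, permutation p = 0.00231) and Fos with Fosl2 (r = 0.85, rho = 0.75, permutation p = 0.00241) had the same adjusted p, and Junb with Arc had r = 0.87 and rho = 0.82 (permutation p = 0.00445, adjusted 0.0400). These 5 pairs passed by Pearson's r. By Spearman's rho 0 of 45 passed, the 5 pairs having permutation p of 0.00133 (Fos with Fosb), 0.00666 (Fos with Dusp1), 0.0133 (Junb with Arc), 0.0137 (Fos with Fosl2) and 0.0166 (Ier2 with Dusp1), with adjusted permutation p of 0.0598 for Fos with Fosb and 0.149 for the other 4.

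Without the 2 libraries farthest from the median of the gene named first, r was 0.74 for Fos with Dusp1, 0.70 for Fos with Fosb, 0.89 for Ier2 with Dusp1, 0.63 for Fos with Fosl2 and 0.73 for Junb with Arc. Within the 6 saline libraries alone, r was 0.99 for Fos with Dusp1 and 0.99 for Junb with Arc (exact permutation p = 0.00278 each, adjusted 0.0625), and 12 of 45 pairs had an exact p under 0.05 but 0 passed the adjustment. The 6 libraries allow so few rearrangements that a single pair could not pass it on its own at any r. When each of the 4 series was centred on its own mean, r was 0.91 for Fos with Dusp1 and 0.86 for Junb with Arc, the median over all pairs was 0.62, and 0 pairs passed, with fewer rearrangements to permute. Series centring moved other pairs further. For Arc with Dusp1 r went from 0.39 to 0.95, for Fos with Arc from 0.45 to 0.83, and for Junb with Dusp1 from 0.34 to 0.78. For Ier2 with Dusp1 it fell from 0.87 to 0.70. Which genes grouped together thus depended on the centring. On omission of single libraries between 0 and 9 pairs passed: 9 without AC-T mouse 501 or 602, and 0 without AC-T mouse 503 or 600 or without saline mouse 202, 203, 300, 301 or 302. Jund had the lowest median of the 10, with r from −0.25 to 0.21 with the other 9 members (median 0.02). All genes of a library share its depth and its tissue makeup.

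**Figure D4:**
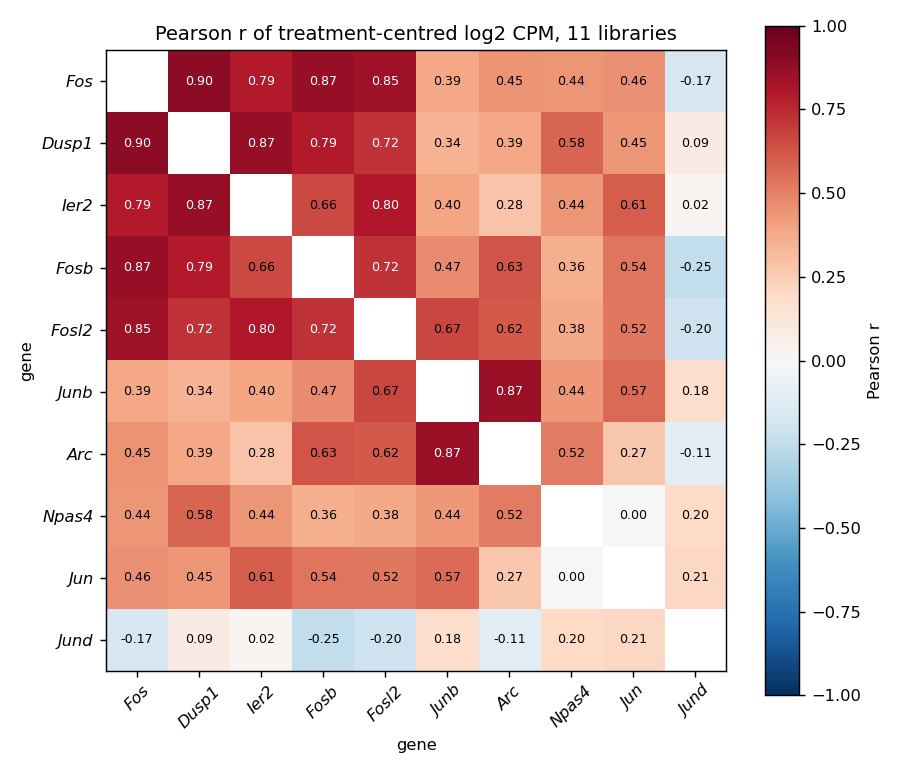
Pearson r between each pair of the 10 genes over 11 libraries after subtraction of the group means, as a colour from −1 to 1 with the value in each cell. Among Fos, Fosb, Fosl2, Ier2 and Dusp1 the lowest r is 0.66 (Fosb with Ier2), no higher than that of Fosl2 with Junb (0.67). Junb with Arc has r = 0.87, and the row of Jund lies near 0. The order of the genes was set by hand. The values depend on centring by treatment: with series centring, which is not drawn, Arc with Dusp1 had r = 0.95.

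The members were also correlated with tissue scores, the mean log2 CPM of each marker list. Centred on treatment, the CA1 score had r = 0.77 with Junb (permutation p = 0.00674, adjusted 0.337) and r = 0.72 with Arc (permutation p = 0.0320, adjusted 0.485). With Fos it had r = −0.17 and with Dusp1 r = −0.11. The neocortex score had r = 0.67 with Fosl2 (permutation p = 0.0347, adjusted 0.485), 0.64 with Arc (permutation p = 0.0464, adjusted 0.485), 0.64 with Fosb (permutation p = 0.0485, adjusted 0.485), 0.59 with Fos (permutation p = 0.0775, adjusted 0.646) and 0.51 with Dusp1 (permutation p = 0.142, adjusted 0.763). None of 50 pairs of a member with a score passed the adjustment, and without the 2 farthest libraries the CA1 score had r = 0.70 with Junb and 0.45 with Arc. The difference between these correlations was not tested. Among 12625 genes searched, those most like Fos over the 11 libraries were Tmem65 (r = 0.94), Rassf3 (0.94), Osbpl1a (0.92), Tox (0.92) and Zmat4 (0.92). Most like Arc were Tbr1 (0.89), a transcription factor gene of glutamatergic cortical neurons, then Ier5 (0.89), Lypd6 (0.88), Ankrd33b (0.87) and Zc3h7b (0.87). These are the highest of many and carry no p.

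Genes around the 10 members in the same pathway were described from lists, beginning with the factors that switch immediate early genes on. The shares called over all genes tested, 4.89% higher and 3.58% lower (8.47% in all), stand beside every count that follows. The lists were chosen with earlier results of these data known, so a count above these shares is no test of a list. Of 20 such factors tested, 6 rose and 0 fell (median log2 fold change 0.04). Mef2c, a calcium-regulated factor, rose from 115 ± 18.6 to 163 ± 10.2 CPM (log2 fold change 0.50 ± 0.10, edgeR adjusted p = 0.0142). Arnt2, the dimer partner of Npas4, rose from 210 ± 17.3 to 258 ± 14.4 CPM (0.29 ± 0.06, edgeR adjusted p = 0.0175). Crem, a relative of CREB, rose by 0.31 ± 0.07 (edgeR adjusted p = 0.0226) and Mkl1, a partner of SRF, by 0.34 ± 0.08 (edgeR adjusted p = 0.0278) on the log2 scale. Gene counts do not separate the splice forms of Crem. Of 21 MAP kinase cascade genes 2 rose and 0 fell (median 0.04), a share near that of all genes: Mapk8, which encodes the Jun kinase JNK1, from 73.8 ± 4.40 to 90.8 ± 9.48 CPM (0.30 ± 0.07, edgeR adjusted p = 0.0223), and Mapk10, which encodes JNK3, by 0.25 ± 0.06 (edgeR adjusted p = 0.0321).

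Among 10 other genes whose proteins can pair with AP-1 subunits, 2 rose and 0 fell (median −0.02). Atf2, a partner of Jun, was at 101 ± 6.69 CPM after AC-T and 88.0 ± 3.32 CPM after saline (log2 fold change 0.20 ± 0.05, edgeR adjusted p = 0.0294), and its groups did not overlap.

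Of 35 further immediate early genes, 7 rose and 3 fell (median 0.10). Homer1, a scaffold of glutamate receptors with a short activity-induced form that gene counts do not separate, rose from 51.0 ± 9.59 to 99.5 ± 9.45 CPM (log2 fold change 0.96 ± 0.12, edgeR adjusted p = 0.00192). Ier5, a relative of Ier2, rose from 35.1 ± 6.49 to 51.7 ± 3.14 CPM (0.56 ± 0.11, edgeR adjusted p = 0.0150). Ier3, a survival factor of the early response, fell from 5.73 ± 0.549 to 4.01 ± 0.295 CPM (−0.51 ± 0.09, edgeR adjusted p = 0.00887), and Klf2, a zinc finger factor abundant in endothelium, from 9.03 ± 1.45 to 5.99 ± 0.719 CPM (−0.59 ± 0.12, edgeR adjusted p = 0.0157). Egr1, a zinc finger factor often measured beside Fos and named here after its values were seen, rose by 0.67 ± 0.15 on the log2 scale (edgeR adjusted p = 0.0186). The endothelial markers summed to 223 to 284 CPM after AC-T and 263 to 295 CPM after saline, with 1 of 7 (Pecam1) called lower. With the endothelium score as a covariate the log2 fold changes were −0.66 for Klf2, −0.53 for Ier2 and −0.47 for Dusp1, with edgeR adjusted p of 0.258, 0.422 and 0.600. Across mice, centred on treatment, that score had r = −0.05 with Ier2 (permutation p = 0.887, adjusted 0.943) and r = 0.17 with Dusp1 (permutation p = 0.358, adjusted 0.814).

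Among 14 later activity-induced genes 2 rose and 1 fell (median 0.25). Vgf, a secreted neuropeptide precursor, rose by 0.37 ± 0.09 (edgeR adjusted p = 0.0353) and Synpo, an actin-binding protein of dendritic spines, by 0.32 ± 0.09 (edgeR adjusted p = 0.0420) on the log2 scale. Gpr3, a receptor that raises cyclic AMP without a ligand, fell from 5.73 ± 0.634 to 4.02 ± 0.479 CPM (edgeR adjusted p = 0.0181). Of 14 other MAP kinase phosphatases and Sprouty-type inhibitors, the negative regulators that Dusp1 belongs with, 2 rose and 1 fell (median 0.15). Spred3 (0.30 ± 0.05, edgeR adjusted p = 0.00511) and Spred2 (0.25 ± 0.04, edgeR adjusted p = 0.00737) rose, while Spry1 fell (−0.38 ± 0.09, edgeR adjusted p = 0.0226). Dusp1 is induced by glucocorticoids in many cells; of 10 other glucocorticoid targets 1 rose and 0 fell (median 0.02): Zbtb16, a zinc finger factor induced by glucocorticoids, had a log2 fold change of 0.89 ± 0.15 (edgeR adjusted p = 0.00595).

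**Figure D5:**
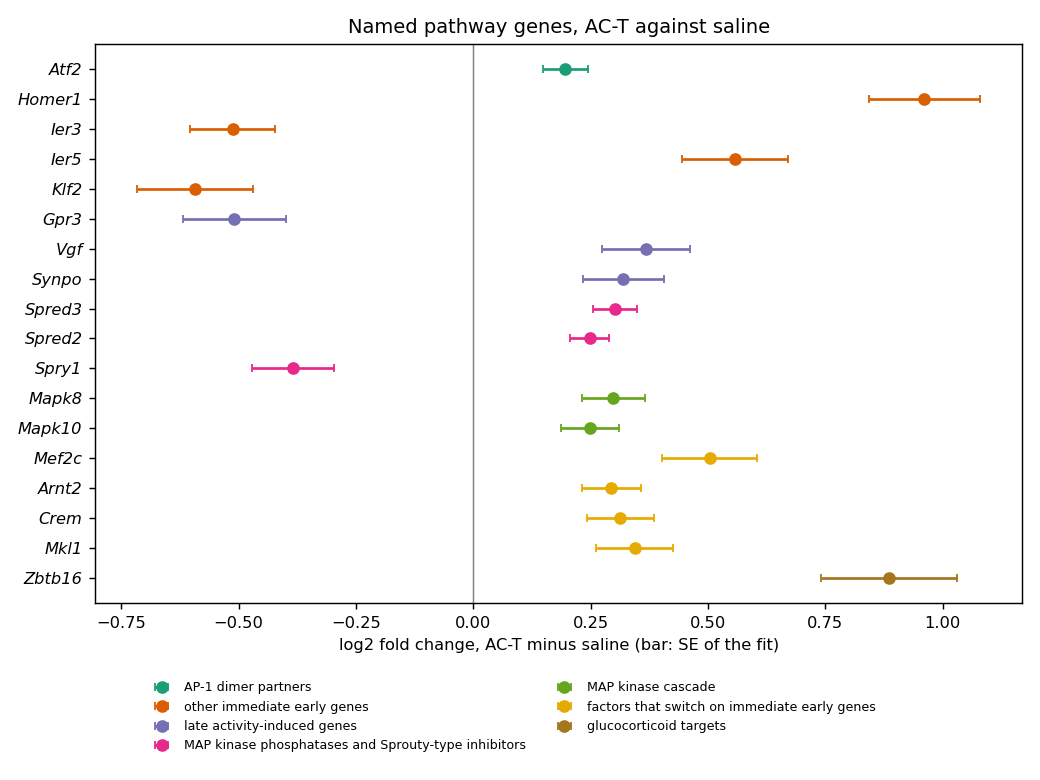
Log2 fold change, AC-T minus saline, with SE, of the pathway genes named by the rule of smallest p in each list (at most 4 a list), coloured by list; the line at 0 marks no difference. Homer1 (0.96) and Zbtb16 (0.89) lie farthest to the right, and Klf2 (−0.59) farthest to the left.

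The calls of Vgf, Synpo, Mapk10, Mkl1, Atf2, Crem and Spry1 were lost on omission of any 1 of 8, 8, 7, 5, 4, 3 and 2 of the 11 libraries; the other 12 pathway genes named, Egr1 included, were called in all 11 omissions. Of the 19 pathway genes named, 13 were not called when series was a random effect, 12 without saline series 2, 6 without saline series 3, 17 without AC-T series 5 and 12 without AC-T series 6, and 0 changed direction. With the thalamus, CA1 or endothelium score as a covariate, none of these 19 genes, nor Ier2, was called, and all 19 kept their direction. Over these 3 fits the log2 fold change ran from 0.60 to 0.98 for Homer1, from 0.66 to 0.80 for Zbtb16, from 0.43 to 0.80 for Egr1 and from −0.70 to −0.43 for Klf2. The thalamus score did not overlap between the groups (exact permutation p = 0.00216, 2-sided, n = 5 and 6, the smallest that 462 splits allow). The CA1 score did not overlap either, at 5.66 to 6.10 after AC-T and 2.93 to 5.32 after saline (exact permutation p = 0.00649). Neither score can therefore be told apart from treatment in the fits that use it. The marker lists were chosen with earlier results of these data known, so the separation and p-values of these scores are no independent test.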

How the data were processed

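Hippocampal RNA of 5 AC-T and 6 saline mice was measured by stranded polyadenylated RNA sequencing, per the labels. The values deposited by the authors are expected counts per gene (from 13.7% to 14.7% of a library's values were not whole). Dragen 4.3.6, FastQC 0.11.9, Salmon 1.9.0 and the build GRCm39 are named, per the submitters' processing notes; the annotation and gene selection are not given in the sources used here. Salmon shares a read among similar genes, so paralogs are less certain. Of the 6 samples per group that the series states, 5 AC-T samples were analysed here.

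Counts were rounded to whole numbers and tested by the quasi-likelihood F test of edgeR 4.0.16 (R 4.3.3), 2-sided, with TMM factors, the filterByExpr filter at a minimum of 10 counts, Benjamini-Hochberg adjustment over 15353 genes and a call under 0.05. The test was checked on simulated counts drawn separately for each library, with no difference between series. That check does not cover likeness of mice within a series. CPM values use TMM-scaled totals, with SD over mice, and each library is treated as a separate mouse. Lengths are those of the longest GENCODE M21 transcript. Correlations used log2 CPM (prior count 2) with 100000 within-treatment permutations. Promoters are from RefSeq (GRCm38.p6). All 10 members are reported; from each pathway list, up to 4 called genes with the smallest p are named. Some genes of the lists are not reported here. The members and lists were chosen with earlier results of these data known. Alternatives were other scaling, filters, DESeq2 1.42.0, limma 3.58.1 (voom), unrounded values, marker scores as covariates, series as a random effect, and omission of each library or series. The series means, the endothelium score and the ratios were added after seeing the data.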

Additional observations from a re-analysis of the deposited data

How the results depend on the processing

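Over all genes 1301 were called by the main test. The count was 2559 with DESeq2, 293 with series as a random effect, 1, 10 and 8 with the thalamus, CA1 or endothelium score as covariate, and 2074 from the means of the 4 series. It was 549, 1206, 317 and 409 without saline series 2, saline series 3, AC-T series 5 or AC-T series 6, and 625 to 1229 on omission of single libraries. Calls split 751 higher to 550 lower, 593 to 663 with upper-quartile factors and 487 to 548 with library totals. Members called lower numbered 1; they were 2 with DESeq2, with genes above 0 in all libraries, from the 4 series means and without saline series 3, 0 with the random effect, with each of the 3 marker scores, and without saline series 2, AC-T series 5 or AC-T series 6, and 0 to 2 on omission of single libraries. Members called higher numbered 0, and 0 to 1 on omission of single libraries (Fosl2 without saline mouse 203). Pairs past the adjustment numbered 5, 0 with series centring and 0 to 9 on omission of single libraries. Some log2 differences changed sign, none of them called: Fos was 0.22 without saline series 2 and 0.62 with the thalamus score; Junb was −0.0351 without AC-T series 5, −0.151 with the thalamus score, −0.342 with the CA1 score, and −0.00786 to 0.152 on omission of single libraries (below 0 without AC-T mouse 502, saline mouse 201 or saline mouse 300). With the thalamus score Jund was 0.0325 and Dusp1 0.0270, and with the CA1 score Npas4 was −0.0612. On omission of single libraries the log2 ratio of Fosl2 to Fosb ran from −0.0517 to 0.176 and that of Jund to Jun from −0.0588 to 0.0641; the latter was 0.0607 without saline series 3 and 0.0994 without AC-T series 5. The cause of these changes was not tested. No paired analysis was possible because the groups share no mouse number. The number of mice limits the precision, and the lowest count of a member in a library was 78.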
